A study of Mus musculus with 4 samples.

Results

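The centrin family of the mouse comprises Cetn1, Cetn2, Cetn3 and Cetn4, and these 4 symbols were matched exactly to the 23420 gene rows of an RNA-seq series on meiotic sex chromosome silencing. All 4 were found and all 4 were among the 10316 genes with a mean above 1 TPM (a transcript level scaled by transcript length and to the same total in each library) in at least one condition. The family was taken up because Cetn2, the X-linked member, was silent in Ctrl libraries and present in AZ20 libraries while its paralogs were present in both. The levels and changes of the 4 centrins are therefore given as a description, with no p, and nothing is read from whether a centrin met the call used for all genes.

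The RNA came from pachytene spermatocytes isolated by FACS from testes of wild-type (WT) C57BL/6 mice of 23 weeks of age. Cells were cultured for 24 h with DMSO (Ctrl, 2 libraries) or with 10 µM AZ20 (2 libraries), an inhibitor of ATR, the kinase that drives DNA damage signaling on the unsynapsed sex chromosomes. The study's methods state that each mouse gave cells to Ctrl and to AZ20 alike and that each library was made from 15000 cells. The labels give a culture temperature of 34 °C and the methods 32 °C.

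Centrins are small calcium-binding proteins of the calmodulin superfamily with EF-hand motifs. They sit in the lumen of the centriole and at the base of cilia and flagella, and Cetn2 is also a subunit of the XPC complex of nucleotide excision repair and of the TREX-2 complex of mRNA export. Cetn1 is an intronless retrogene copy of Cetn2 that is expressed in the male germ line, Cetn3 belongs to a more distant branch of the family, and Cetn4 is known from ciliated tissues. In pachytene spermatocytes the X and Y chromosomes are transcriptionally silenced, a state called meiotic sex chromosome inactivation, and autosomal retrogenes of X-linked genes are known to be transcribed at that stage.

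The annotated gene structures differ along this line. The autosomal Cetn1 has 1 exon, and its transcript of 1051 bases encodes 172 residues. Cetn2 lies on the minus strand of the X chromosome at chrX:72913532-72918411 (GRCm38), has 5 exons and encodes a protein of 172 residues, like Cetn1. Cetn3 (chr13:81783077-81797155, plus strand) and Cetn4 (chr3:37307749-37312708, minus strand) have 5 exons each and encode 167 and 168 residues. The coding sequences of Cetn1 and Cetn2 were identical at 79.5% of 513 aligned bases, which was the highest identity of the 6 pairs. Cetn2 and Cetn4 were identical at 71.8%, Cetn1 and Cetn4 at 70.4%, and the pairs that include Cetn3 at 62.0% to 64.1%. Over whole transcripts, the longest run of identical bases in any pair was 29 bases, between Cetn1 and Cetn2, against reads of 150 bp. No stretch as long as a read was thus shared between these transcripts.

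The start regions of Cetn2, Cetn3 and Cetn4 are shown because they are the start regions of the X-linked gene that changed and of 2 paralogs present in every library, and because those of Cetn2 and Cetn4 are shared with another gene. Each sequence is from RefSeq (GRCm38.p6) and runs 5′ to 3′ on the gene's strand, from 250 bases before to 50 bases after its transcription start. The window is chrX:72918295-72918594 (minus strand) for Cetn2, chr13:81782997-81783296 (plus strand) for Cetn3 and chr3:37312397-37312696 (minus strand) for Cetn4. Capitals mark CCAAT, or ATTGG where the match is on the opposite strand.
Cetn2: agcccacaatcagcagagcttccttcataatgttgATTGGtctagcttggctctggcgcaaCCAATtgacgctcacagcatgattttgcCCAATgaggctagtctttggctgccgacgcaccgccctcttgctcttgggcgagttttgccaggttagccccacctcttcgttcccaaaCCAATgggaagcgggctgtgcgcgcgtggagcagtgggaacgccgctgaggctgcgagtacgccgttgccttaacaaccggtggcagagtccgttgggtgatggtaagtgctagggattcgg
Cetn3: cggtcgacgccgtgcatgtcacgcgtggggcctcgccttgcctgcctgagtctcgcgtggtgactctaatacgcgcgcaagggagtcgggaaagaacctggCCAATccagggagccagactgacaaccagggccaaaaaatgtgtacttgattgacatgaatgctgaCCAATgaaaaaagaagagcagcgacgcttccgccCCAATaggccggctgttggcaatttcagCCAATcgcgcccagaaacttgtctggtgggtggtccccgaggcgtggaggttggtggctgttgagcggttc
Cetn4: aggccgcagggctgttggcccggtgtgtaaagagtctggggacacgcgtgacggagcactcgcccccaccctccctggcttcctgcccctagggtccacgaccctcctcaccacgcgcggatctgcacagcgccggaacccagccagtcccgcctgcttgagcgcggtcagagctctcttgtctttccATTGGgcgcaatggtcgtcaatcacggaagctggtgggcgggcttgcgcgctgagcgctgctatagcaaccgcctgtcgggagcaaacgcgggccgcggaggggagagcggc

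The windows of Cetn2 and Cetn3 each held 4 CCAAT letters, and 1.06% of 32851 windows of this length held 4 or more. In Cetn2 the matches began at −215, −189, −161 and −72 from the start, and in Cetn3 at −149, −83, −49 and −21. Cetn4 held 1 match, at −62, as did 37.4% of windows at least once. The GC box GGGCGG, or CCGCCC, occurred 1 time in each of the 3 windows and in 35.7% of all windows. The sequence GTTGCC, or GGCAAC, a core of the X-box bound by RFX factors, occurred 1 time in Cetn2, from −8 to −3, in neither of the other windows and in 12.5% of all windows. The palindrome TGACGTCA was in none of the 3 windows and in 1.79% of all. None of these motifs overlapped another, except that the GC box of Cetn3 (−54 to −49) shares 1 base with a CCAAT match. The 3 windows held 57.3%, 58.3% and 67.7% G and C, above the median window at 52.7%. These motifs were chosen after the windows had been seen, and they describe letters rather than bound sites.

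As recovered from the deposited TPM, gene reads numbered 13912892 and 15785260 for the Ctrl libraries and 20155539 and 18427237 for those of AZ20. All 8 pachytene markers were above 1 TPM, with a sum of 4995 to 5243 TPM in Ctrl and 5132 to 6116 in AZ20. Markers of Sertoli cells (8 genes, sum 1.39 to 1.78 TPM in Ctrl and 2.004 to 2.217 in AZ20), with Sox9, Wt1 and Fshr at 0, of Leydig cells (6 genes, 0.866 to 2.32 and 1.60 to 2.11), with 5 genes at 0, and of macrophages (5 genes, 0.680 to 1.54 and 2.09 to 2.26) were low. Dhh was the highest of the Sertoli cell markers, and Star was the only Leydig cell marker above 0. The 8 spermatogonial markers summed to 8.26 to 21.2 TPM in Ctrl and 13.5 to 15.1 in AZ20, with Stra8 and Dmrt1 at 0. A mean above 1 TPM was reached by 2 of the 8, and Uchl1 was the highest, at a mean of 13.2 TPM. The 8 round spermatid markers summed to 152.7 to 373.2 TPM in Ctrl and 256.2 to 787.8 in AZ20. Transcripts of such markers were thus present in every library. Whether they came from haploid cells was not tested, nor was the part of such cells in the centrin levels. In bulk RNA, fewer cells of a type and less RNA per cell cannot be told apart.

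Cetn2, which was not detected in Ctrl, was present in AZ20. No read was recovered for Cetn2 in either Ctrl library, and 1168 and 1586 reads were recovered in AZ20. In TPM its level was 0 and 0 in Ctrl and 67.7 and 101.9 in AZ20 (84.8 ± 24.2, SD, n = 2). The groups did not overlap, and replicate 2 was the higher of the AZ20 libraries. A count of 3 reads would have stood for 0.251 and 0.219 TPM in the Ctrl libraries, and against that floor the AZ20 mean was at least 361-fold higher. In the pairs, AZ20 replicate 1 was at least 270-fold and AZ20 replicate 2 at least 465-fold higher than the floor of its Ctrl library. The reads and these bounds rest on a read factor of 2 taken from the annotated length of Cetn2. Without it the reads were 584 and 793 and the mean was at least 180.5-fold higher. On the log2(TPM + 1) scale the change was 6.39 (SE 0.28), and 6.10 and 6.69 in the pairs, a scale on which the value of a gene at 0 depends on the added constant.

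Cetn1, on chromosome 18, was the leading centrin transcript in every library. Its level was 6838 and 5555 TPM in Ctrl (6196 ± 907.2, SD, n = 2) and 5819 and 5521 in AZ20 (5670 ± 210.7), which made it the gene of rank 8 to 11 by TPM among the 10316 tested. The AZ20 library of replicate 1 lay between the Ctrl libraries and that of replicate 2 lay slightly under both. The change was −0.12 on the log2 scale (SE 0.13). It was −0.23 in the first pair and −0.01 in the second.

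Cetn3 was at 1022 and 848.9 TPM in Ctrl (935.4 ± 122.3, SD, n = 2) and at 838.2 and 940.6 in AZ20 (889.4 ± 72.4). The groups overlapped, and the pairs went in opposite directions, with log2 changes of −0.29 and 0.15 around a mean change of −0.07 (SE 0.15). Cetn4 was at 1039 and 939.2 TPM in Ctrl (988.9 ± 70.3) and at 999.2 and 868.3 in AZ20 (933.8 ± 92.6). Here too the groups overlapped. Both pairs were slightly lower in AZ20, with log2 changes of −0.06 and −0.11 and a mean change of −0.08 (SE 0.14).

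**Figure D1:**
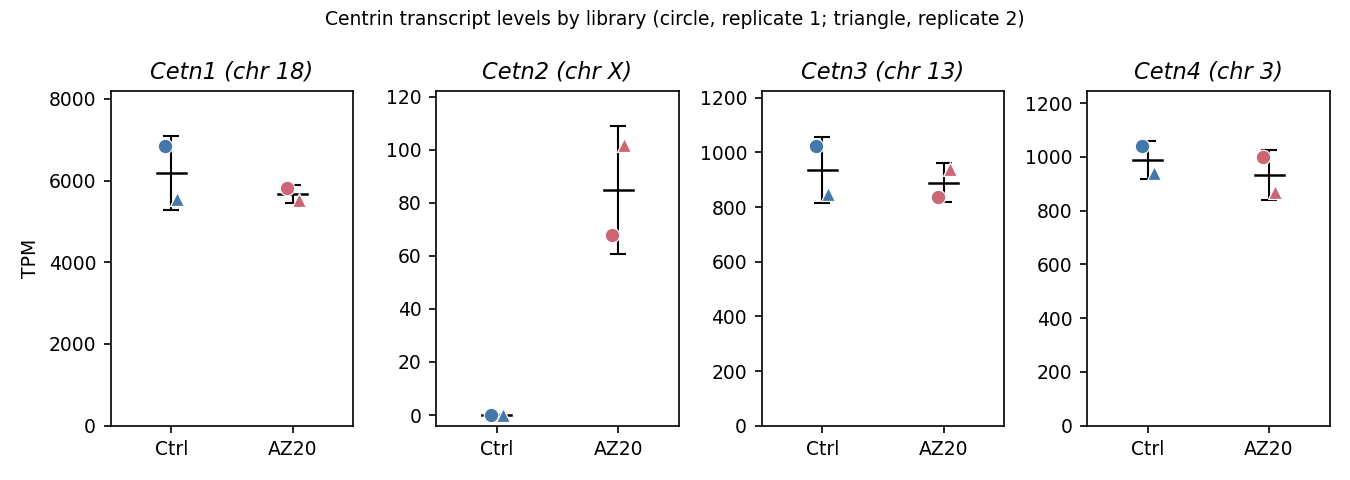
Level in TPM (y axis) of the 4 centrins in Ctrl and AZ20 (x axis). The y axis has a separate scale for each gene and starts at 0, or slightly under 0 for Cetn2. Each point is a library, the horizontal line is the mean of 2 libraries and the bar is the SD. Cetn2 is at 0 in both Ctrl libraries and at 67.7 and 101.9 TPM in AZ20, whereas the Ctrl and AZ20 ranges lie close together or overlap for the other centrins.

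A gene was called where limma gave an adjusted p (Benjamini-Hochberg, over all tested genes) under 0.05 and the change was 2-fold or more. This call was met by 1 of the 4 centrins, Cetn2, and the family was chosen from this same contrast. Of all tested genes, 2.28% were called higher in AZ20 and 0.0485% lower, and the blocked fit by replicate number called 4.11% and 0.223%. The share called higher was 63.3% among 341 X-linked tested genes and 0.101% among 9937 autosomal ones, of which 0.0503% were called lower. With the block the counts were 279 of 341 X-linked genes higher, and 134 higher and 23 lower of the autosomal genes, instead of 216, 10 and 5. The median log2 change was 2.61 over X-linked genes and 0.06 over autosomal genes (quartiles −0.12 and 0.29), so that Cetn1, Cetn3 and Cetn4 lay within the middle of the autosomal distribution or at its lower quartile. With either AZ20 library left out, limma called 0 genes in the whole table, with smallest adjusted p of 0.095 and 0.07, while 429 and 465 genes were at least 2-fold higher at an unadjusted p under 0.05. In those fits the spread came from the 2 Ctrl libraries alone and the remaining AZ20 library was assumed to vary like them, while the log2 change of Cetn2 was 6.69 and 6.10.

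Because TPM is scaled by transcript length, the family members can be set against each other within a library. The 4 centrins summed to 8898 and 7343 TPM in Ctrl and to 7724 and 7432 in AZ20, so the AZ20 sums fell within the range of the Ctrl sums. Cetn1 made up 76.8% and 75.7% of this sum in Ctrl and 75.3% and 74.3% in AZ20. Cetn2 made up none of it in Ctrl, and 0.877% and 1.37% in AZ20. The order of levels was Cetn1 first and Cetn2 last in all 4 libraries. Cetn1 exceeded Cetn3 by 5.87 to 6.94 times and Cetn4 by 5.82 to 6.58 times. Cetn3 and Cetn4 were not separated by their spread, since the ratio of Cetn4 to Cetn3 was 1.02 and 1.11 in Ctrl and 1.19 and 0.923 in AZ20. After AZ20 the X-linked parent still stood far under its retrogene, with Cetn1 85.9 and 54.2 times as high as Cetn2.

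Cetn2 was among the X-linked genes with the largest changes and with high levels in AZ20. It had rank 10 by log2 change among the 341 X-linked tested genes and rank 28 by AZ20 level, at 0.716% and 1.11% of their summed TPM. The median X-linked tested gene reached 6.45 TPM in AZ20. No read was recovered in either Ctrl library for 114 of the 341, and Cetn2 had the highest AZ20 level of these 114. The next were Rhox2d, a reproductive homeobox gene (53.6 and 46.4 TPM in AZ20), and Magea2 (32.3 and 36.0 TPM). The X-linked genes just above Cetn2 by log2 change were Pbdc1 (6.51), 4930595M18Rik (6.46) and 1700013H16Rik (6.40). Those just below it were Fam122c (6.36), Magea8 (6.29) and Prps1 (6.25), the last a phosphoribosyl pyrophosphate synthetase that itself has an autosomal retrogene. These differences between neighbours are smaller than the SE of the Cetn2 change. All 6 had at least 1 Ctrl library with reads, but those of 4930595M18Rik were 0 and 3, no more than the floor of 3 reads. Its AZ20 mean was 92.1 TPM, above the 84.8 TPM of Cetn2. The first place of Cetn2 among the 114 thus rests on a difference of a few reads.

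Cetn2 and Nsdhl, an enzyme of cholesterol synthesis, are transcribed away from each other from starts 177 bases apart, so they share the CCAAT-bearing region printed above. Nsdhl was at 0 and 0.430 TPM in Ctrl and at 49.0 and 51.4 in AZ20. Its log2 change was 5.42 (SE 0.27, adjusted p = 6.85e-05 in limma). The other divergent pair behaved otherwise. Bbs12, a chaperonin-like gene of Bardet-Biedl syndrome, starts 108 bases from Cetn4 on the opposite strand and was at 0.774 and 1.35 TPM in Ctrl and at 0.622 and 0.845 in AZ20. Its groups overlapped and its change did not pass the test (log2 change −0.24, SE 0.34, adjusted p = 0.903). The levels of Cetn4 and Bbs12 thus differed widely across a shared start region. Cetn2 and Nsdhl were both near or at 0 in Ctrl and of the same order in AZ20. Cetn4 and Bbs12 are autosomal, and Cetn2 and Nsdhl are X-linked. Of X-linked tested genes 63.3% were called higher, and of autosomal ones 0.101%. A part of the start regions in these levels was not tested.

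All 8 tested genes within 500 kb of Cetn2 were called higher in AZ20, beside 63.3% of X-linked tested genes. Besides Nsdhl they were 4930408F14Rik and 6 members of the Xlr family, which encode nuclear proteins related to the synaptonemal complex protein Sycp3. 4930408F14Rik was at 0.195 and 0.427 TPM in Ctrl and at 90.9 and 66.7 in AZ20 (log2 change 5.92, SE 0.26, adjusted p = 4.98e-05 in limma). The 6 Xlr genes rose by 2.02 (Xlr5a and Xlr4c) to 3.37 (Xlr5c) on the log2 scale, with adjusted p of 0.0017 (Xlr4b) to 0.0423 (Xlr5a). The Xlr genes are near-identical copies of each other, and the authors kept unique alignments only, so their levels are uncertain. The calls of Xlr5a, Xlr4c and Xlr5c were lost with either Ctrl library left out, and those of Xlr4c and Xlr5c also with voom on recovered reads. The genes of this window that were not tested had means of 1 TPM or less in both groups, among them Gabra3 and Gabrq, which encode neuronal GABA receptor subunits and were listed at 0 in all libraries.

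**Figure D2:**
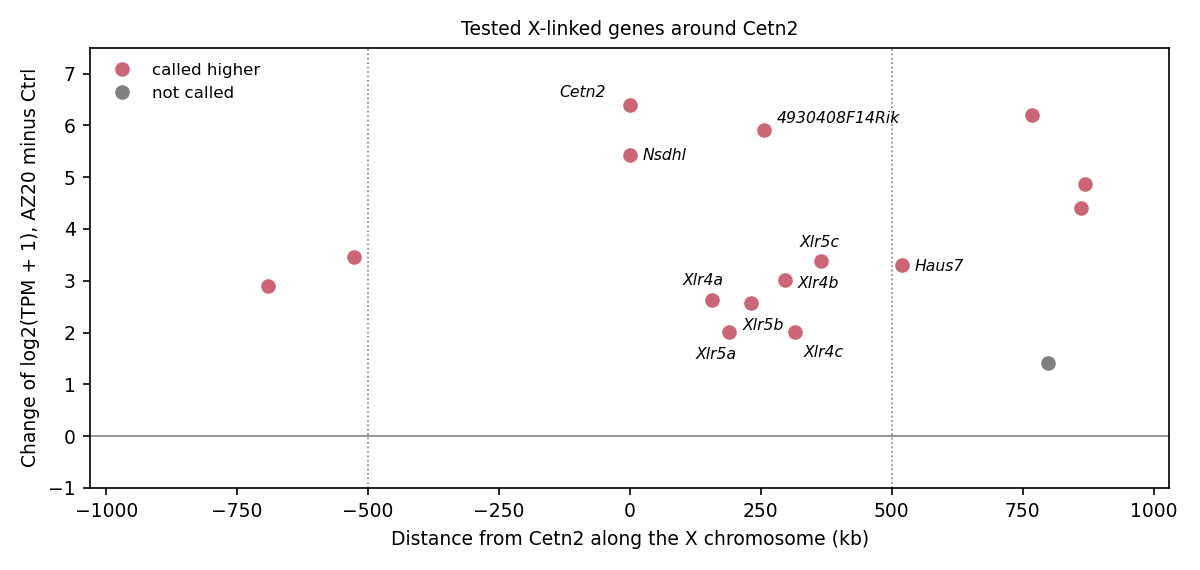
Change of log2(TPM + 1), AZ20 minus Ctrl (y axis), of tested X-linked genes against the distance between the gene and Cetn2, from the nearest ends of the annotated genes, in kb (x axis). Each point is a gene, dotted lines mark 500 kb on either side, and genes within them and Haus7 are named. Of the named genes, Cetn2, Nsdhl and 4930408F14Rik lie above 5, and the Xlr genes lie between 2.02 and 3.37.

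The relation of Cetn2 to Cetn1 was set beside 12 other X-linked genes with an autosomal retrogene. Of 10 X-linked parents that were tested, 8 were called higher in AZ20, beside 63.3% of all X-linked tested genes. Of the parents 0 were called lower (none lower at an unadjusted p under 0.05, none with voom). Their median log2 change was 3.21 beside 2.61 over X-linked tested genes. With voom on the recovered reads 7 of the parents were called, Rpl36a being lost. The largest changes were those of Prps1 (0.853 and 1.01 TPM in Ctrl, 142.1 and 149.0 in AZ20, adjusted p = 3.81e-05 in limma) and Ubl4, a ubiquitin-like factor of tail-anchored protein insertion (1.07 and 0.449, then 123.4 and 96.5 TPM, adjusted p = 4.98e-05). Parents that serve basic cell functions were also called. Rpl10, a ribosomal protein gene, changed by 3.75 and Rbmx, a splicing factor gene, by 3.42, while Zfx, a zinc finger transcription factor gene, changed by 3.01. Rpl36a changed by 3.61, Cstf2, of mRNA 3′ end formation, by 2.29 and Utp14a, of small ribosomal subunit assembly, by 2.26. Without Ctrl replicate 1 the call of Cstf2 was lost, and without Ctrl replicate 2 those of Cstf2 and Utp14a.

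Pgk1, a glycolytic kinase gene, was at 1.82 and 0.530 TPM in Ctrl and at 2.14 and 1.74 in AZ20 and did not pass the test (log2 change 0.50, adjusted p = 0.804 in limma). Neither did Rpl39, at 0 in both Ctrl libraries and at 1.57 and 0.580 TPM in AZ20 (1.01, adjusted p = 0.494). Pdha1 was listed at 0 in all 4 libraries, and G6pdx had 0.447 TPM in AZ20 replicate 1 and 0 elsewhere, so neither was tested. The authors kept unique alignments only, and how far this lowered the levels of parents or retrogenes was not tested.

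None of the 11 tested autosomal retrogenes was called in either direction by limma or by voom. Limma called only 0.101% of autosomal tested genes higher and 0.0503% lower, so the absence of calls does not set the retrogenes apart. Of the retrogenes, 1 was higher at an unadjusted p under 0.05. Their log2 changes ran from −0.43 (Prps1l1) to 0.62 (Rbmxl2, adjusted p = 0.533 in limma), with a median of 0.08 beside 0.06 over autosomal genes. Cetn1, with −0.12, lay inside this range. In Ctrl the mean level of the retrogene was above that of its parent in 9 of the 10 pairs with both copies tested, the exception being Utp14a and Utp14b at 0.319 and 0.286 TPM. In AZ20 it was above in 6 of 10. Cetn1 belongs with those 6, since Cetn2 made up 1.15% and 1.81% of the summed TPM of the pair in AZ20. Prps1, in contrast, made up 0.341% to 0.535% of its pair in Ctrl and 40.7% to 54.7% in AZ20.

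**Figure D3:**
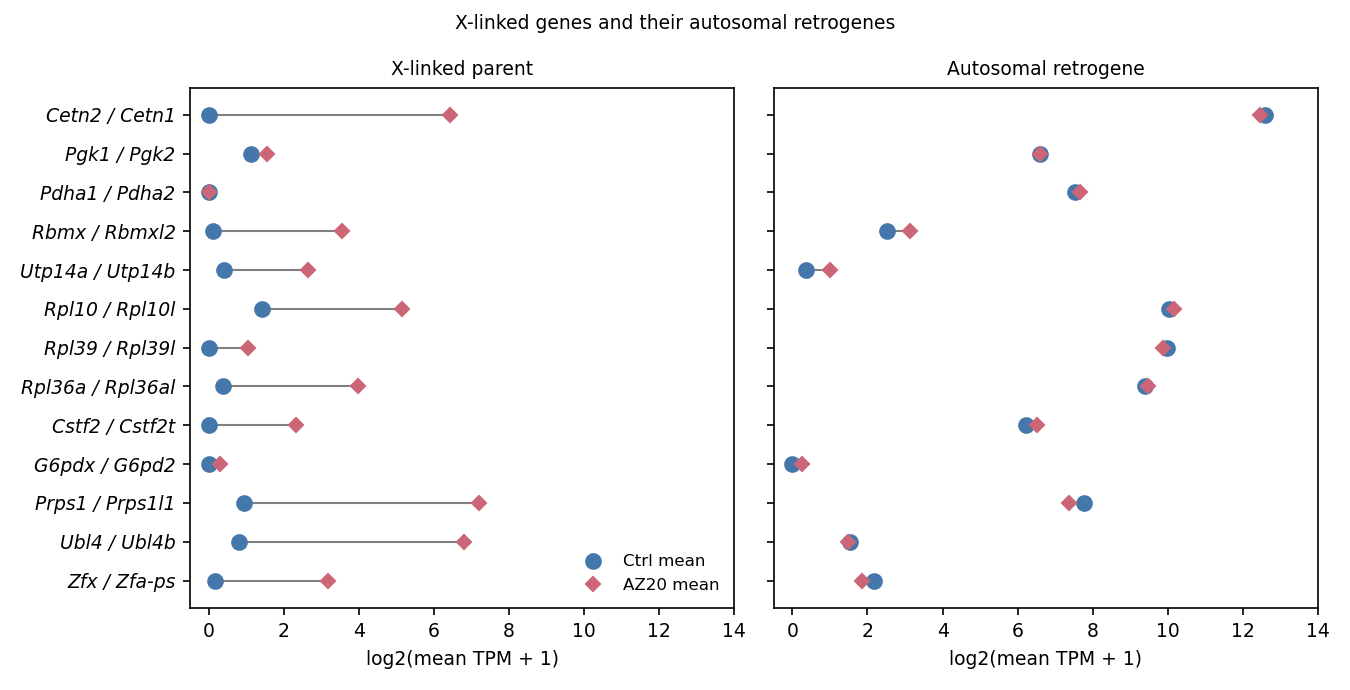
log2(mean TPM + 1) (x axes) in Ctrl (blue circles) and AZ20 (red diamonds) of X-linked parents (left) and their autosomal retrogenes (right), 1 pair per line with Cetn2 and Cetn1 on top. Each point is the mean of 2 libraries. The left panel shows long shifts for Cetn2, Prps1 and Ubl4 and none for Pdha1. The right panel shows short shifts for the tested retrogenes, whose log2 changes in limma, not drawn here, ran from −0.43 to 0.62.

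Transcripts were examined for genes of the processes centrins act in and for the calmodulins, relatives of centrins. These partner lists also hold excision repair and other factors that need not bind a centrin. The 6 lists have 79 genes, of which 69 were tested. Limma called 2 of them higher in AZ20, both X-linked, and 0 lower, with 3 higher and 0 lower at an unadjusted p under 0.05 and 2 higher and 0 lower with voom. The shares over all tested genes were 2.28% and 0.0485%. Over autosomal tested genes they were 0.101% and 0.0503%, and 63.3% of X-linked tested genes were called higher. The absence of calls among the autosomal members therefore does not set them apart from other autosomal genes. The 67 autosomal members had a median log2 change of 0.12, beside 0.06 over all autosomal genes, and lay between −0.40 and 1.05. The X-linked members were Ofd1 and Haus7, the only ones tested.

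Ofd1, which limits centriole length at the distal end where centrin also lies, was at 0 and 0.487 TPM in Ctrl and at 10.2 and 8.64 in AZ20. Its log2 change was 3.09 (SE 0.32, adjusted p = 0.00216 in limma). Haus7, a subunit of the augmin complex that nucleates microtubules along existing ones, was at 0 and 0.191 TPM in Ctrl and at 14.01 and 6.81 in AZ20, with a log2 change of 3.31 (SE 0.38, adjusted p = 0.00387). Both log2 changes were under that of Cetn2. The call of Haus7 was lost when genes of low level were left in the test, and both calls were lost with an added constant of 0.01 TPM.

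The autosomal subunits of the same complexes were not called. Haus1, the most abundant augmin transcript, was at 1804 and 1446 TPM in Ctrl and at 1426 and 1330 in AZ20 (log2 change −0.23, adjusted p = 0.755 in limma), and the lowest change of the list was that of Haus2 (−0.36). Cep68, which links parental centrioles, had the highest autosomal change, from 1.03 and 0.847 TPM in Ctrl to 2.502 and 3.60 in AZ20 (1.05, SE 0.31, adjusted p = 0.289). This change did not pass the test. Among the other centriole duplication genes, Plk4, the kinase that starts duplication, was at 60.6 and 55.9 TPM in Ctrl and at 61.4 and 56.2 in AZ20 (0.01), and the autosomal members ran from −0.40 (Tubd1) to 0.51 (Tube1), both of the tubulin superfamily.

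Genes of the centriole lumen, where centrins are held by Poc5 and Sfi1, were not called either. Of 8 such genes 6 were tested, with a median log2 change of −0.03 and a range from −0.22 (Poc1a) to 0.54 (Mdm1). Poc5, which carries centrin-binding repeats, was at 15.0 and 8.75 TPM in Ctrl and at 14.1 and 13.3 in AZ20 (0.24, SE 0.29, adjusted p = 0.882 in limma). Sfi1, the other carrier of such repeats, was at 1.18 and 0.366 TPM in Ctrl and at 0.752 and 0.265 in AZ20 and was left out of the test by its low mean.

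Tested genes of nucleotide excision repair and of the TREX-2 complex, where Cetn2 acts in the nucleus, were not called. Xpc, the damage sensor to which Cetn2 binds, was at 0.6003 and 1.86 TPM in Ctrl and at 1.06 and 1.83 in AZ20 (log2 change 0.17, SE 0.40, adjusted p = 0.95 in limma), and its groups overlapped. In AZ20 its transcript thus stayed well under that of Cetn2. The 12 tested nucleotide excision repair genes of 13 ran from −0.30 (Ercc5) to 0.77 (Ddb2, adjusted p = 0.682). All 4 TREX-2 genes were tested and ran from 0.05 (Shfm1) to 0.24 (Pcid2). Of the calmodulins, relatives of centrins, Calm2 was higher than any centrin, at 23100 and 22350 TPM in Ctrl and 22880 and 26680 in AZ20 (log2 change 0.12, adjusted p = 0.831 in limma).

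**Figure D4:**
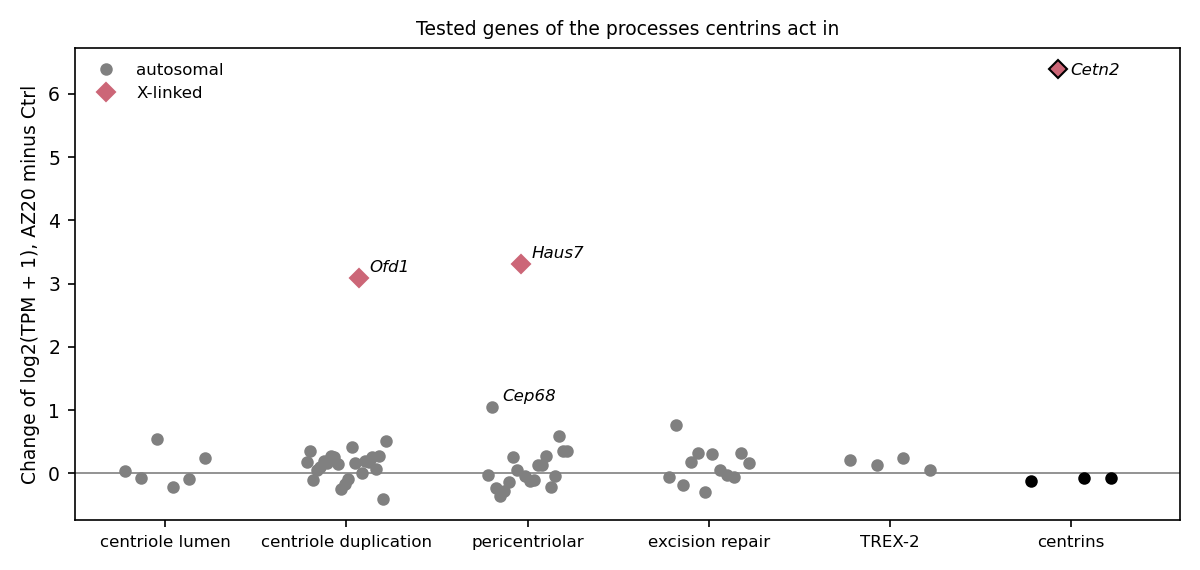
Change of log2(TPM + 1), AZ20 minus Ctrl (y axis), of tested genes in the partner lists other than the calmodulins and of the centrins (x axis). Each point is a gene, red diamonds are X-linked and circles autosomal. Ofd1 (3.09), Haus7 (3.31) and Cetn2 (6.39) stand apart from the autosomal genes, the highest of which is Cep68 (1.05).

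The genes with levels most like those of each centrin were found by Euclidean distance between log2(TPM + 1) values over the 4 libraries, as a description. Cetn1 was nearest to Ldhc (0.22), the germ cell lactate dehydrogenase, at 6056 and 5827 TPM in Ctrl and 6178 and 5216 in AZ20, then to Meig1 (0.44), a spermiogenesis gene, Serf1 (0.46) and Ndufc1 (0.51), a subunit of respiratory complex I. Those 4 genes are autosomal. Cetn2 was nearest to 4930595M18Rik (0.68), Wbp5 (0.88), Xlr (0.91) and 4930408F14Rik (0.93), all X-linked, the last its neighbour on the chromosome. Cetn3 was nearest to 1810009A15Rik (0.17), Tsacc (0.19), Thoc7 (0.20), of the THO mRNA export complex, and Cox6b2 (0.20), a testis form of a cytochrome c oxidase subunit. Cetn4 was nearest to Edf1 (0.07), Ddt (0.12), Insl6 (0.16) and Vimp (0.17). The nearest genes of Cetn2 lay farther from it than those of the other centrins from theirs.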

How the data were processed

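RNA-seq was done on 4 libraries of cultured pachytene spermatocytes. Per the study's methods and the submitters' processing notes, paired reads were passed through Trimmomatic 0.39 and STAR 2.5.4b (GRCm38, unique alignments kept) and counted with featureCounts 2.0.1 against UCSC refGene. The authors deposited TPM made from these counts, 1 column for each library. The kit does not mark strand, so reads of Cetn3 and Cetn4 cannot be told from those of genes that overlap them on the other strand. In all 92 blank rows, at 0 TPM, were left out.

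Whole reads were recovered from the deposited TPM through the common length of a gene in all columns. Of 16857 genes above 0, 16857 gave whole reads (relative tolerance 2e-07), and a common factor was corrected from the annotated length for 2505 genes, Cetn2 among them (factor 2). The libraries thus held 13912892 to 20155539 reads on genes. Bounds and floors of 3 reads cover counting error only. The deposited TPM are not counts, so log2(TPM + 1) was fitted with limma 3.58.1 (R 4.3.3, intensity trend) over genes with a mean above 1 TPM in either group. Other values came from Python 3.11.15, pandas 2.3.3, numpy 2.4.6 and matplotlib 3.10.9. The smallest p of an exact permutation test of 2 against 2 libraries is 0.333, so no such test was used.

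The methods state that cells of a mouse were split between conditions. Libraries of the same replicate number were taken as pairs, an assumption, since the sample titles do not state it. Deviations from the group means of same-numbered libraries correlated at 0.23 over 9937 autosomal and 0.18 over 341 X-linked genes. An alternative fit took the replicate number as a block, which moved the calls over all tested genes from 235 to 424 higher and from 5 to 23 lower. Other alternatives were added constants of 0.1 and 0.01 TPM, no filter, a filter at a mean of 5 TPM, quantile normalization, a common autosomal total, no trend, voom on the recovered reads, and leaving out each library.

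The members and lists were chosen with earlier results of these data known. Named genes were the 4 centrins, of each other list up to 6 called genes and the highest and lowest change, tested genes within 500 kb of Cetn2, the 4 nearest genes of each centrin and the 3 X-linked genes on either side of Cetn2 by change. Nsdhl aside, Bbs12, the other genes given with values from the lists, Rhox2d and Magea2 were named after their values were seen. In the lists, Ubl4 stands for Ubl4a, and 1 gene is not reported here. Promoter windows, from RefSeq (GRCm38.p6), were found for 3 of the 4 centrins. Gene structures are from GENCODE M21.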

Additional observations from a re-analysis of the deposited data

How the results depend on the processing

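The log2 changes of Cetn1, Cetn3 and Cetn4 stayed within −0.27 and 0.06 under every alternative run, and their sign turned to 0.03 (Cetn1), 0.06 or 0.01 (Cetn3) and 0.02 (Cetn4) with 1 library left out. That of Cetn2 was 9.70 with 0.1 and 13.02 with 0.01 TPM added and 11.03 with voom on recovered reads, since its Ctrl libraries are at 0, and 6.10 to 6.69 with each library left out. Without the read factor, an alternative chosen after seeing the data, its bound was 180.5-fold instead of 361-fold. Over all tested genes, 235 were called higher and 5 lower. The replicate block gave 424 and 23, and leaving out a library gave 0 to 200 and 0 to 1. Lower calls numbered 1 without the filter and 1 with voom. The 2 partner calls became 0 with 0.01 TPM added, 1 without the filter and 0 to 2 with a library left out, and the 8 parents became 5 with 0.01 TPM added and 0 to 7 with a library left out. The replicate block changed no call among the centrins, the partner lists, the parents or the retrogenes. Quantile normalization moved the median change of all tested genes from 0.072 to −0.063 and left each centrin with its sign. Of the alternatives for 19 single genes other than centrins, 178 kept their side of the threshold, 64 lost a call, Nsdhl among them with 0.01 TPM added, and 0 reversed. The cause of these changes was not tested. With 2 libraries a group, small changes of Cetn1, Cetn3 and Cetn4 were not detectable beyond the spread.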
